A study of Homo sapiens with 4 samples.

Results

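Inflammatory chemokines and cytokines were examined as a group of 10 genes chosen by name: CCL2, CCL5, CXCL1, CXCL2, CXCL3, CXCL8, IL1B, IL6, LIF and CSF2. All 10 are listed among the 20329 genes of the table, and 8 of them had a mean level of at least 1 FPKM (fragments per kilobase of transcript, scaled to the mapped fragments of the library) and entered the test across 13928 genes. CCL5 and CXCL3 lay under that filter and are described by their values. RNA was taken from BM1 (1833) and LM2 (4175), which the labels give as the bone and lung metastasis derivatives of MDA-MB-231, a triple-negative human breast cancer line. Each derivative was sequenced once as a control carrying a non-specific shRNA and once as a knockdown carrying an shRNA to hnRNPM, an RNA-binding protein that takes part in splicing. All 4 cultures stably carried a lentiviral shRNA, so the controls are transduced cells too. The sources used here do not give the number of shRNAs or clones, nor their sequences. The title of the series asks about splicing during the epithelial-mesenchymal transition, and the table gives gene levels only.

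Chemokines are small secreted proteins that attract leukocytes through receptors coupled to G proteins. CC chemokines such as CCL2 and CCL5 draw mainly monocytes and T cells, and CXC chemokines such as CXCL1, CXCL2, CXCL3 and CXCL8 draw mainly neutrophils. IL1B acts through the IL-1 receptor and the NF-kB pathway, IL6 and LIF signal through receptor complexes that share gp130 (the product of IL6ST), and CSF2 drives the growth and activation of myeloid cells. Breast cancer cells of the mesenchymal, triple-negative kind are known to secrete several of these proteins. NF-kB dimers bind short kB sites in many cytokine promoters, and AU-rich elements in the 3' untranslated region shorten the life of many cytokine transcripts.

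The neutrophil chemokines are shown first by their promoters, because CXCL1, CXCL2 and CXCL3 are near copies of each other while CXCL8 is not, and because their levels differed in pattern. RefSeq promoter sequence was matched for 7 of the 10 genes, and CCL2, CCL5 and LIF were not matched. The sequences below are the 100 bases before the annotated start, 5′ to 3′ on the strand of the gene, on build GRCh38.p14. They lie at chr4:73869293-73869392 on the plus strand for CXCL1, chr4:74099196-74099295 on the minus strand for CXCL2, chr4:74038690-74038789 on the minus strand for CXCL3, chr4:73740469-73740568 on the plus strand for CXCL8 and chr7:22727100-22727199 on the plus strand for IL6. Capitals mark the match to a kB motif.
CXCL1: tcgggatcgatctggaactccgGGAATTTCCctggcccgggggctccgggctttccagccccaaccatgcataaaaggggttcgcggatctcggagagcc
CXCL2: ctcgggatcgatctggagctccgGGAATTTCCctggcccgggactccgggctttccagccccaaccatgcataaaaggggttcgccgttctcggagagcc
CXCL3: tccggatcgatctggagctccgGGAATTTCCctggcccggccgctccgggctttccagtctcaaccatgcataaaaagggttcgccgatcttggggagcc
CXCL8: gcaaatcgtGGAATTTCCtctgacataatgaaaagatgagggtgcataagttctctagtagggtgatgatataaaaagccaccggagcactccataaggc
IL6: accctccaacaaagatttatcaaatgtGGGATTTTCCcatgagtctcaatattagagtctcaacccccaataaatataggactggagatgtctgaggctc

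The motif GGAATTTCC, searched on both strands of the 250 bases before the start, was found in CXCL1, CXCL2, CXCL3 and CXCL8, and in 145 of 35116 RefSeq promoters (0.413%). It lay 78 to 70 bases before the start in CXCL1 and CXCL3, 77 to 69 in CXCL2 and 91 to 83 in CXCL8. The longer NF-kB consensus was found in CXCL1, CXCL2, CXCL3 and IL6 and in 9.96% of all promoters, where it overlaps the first motif in the 3 near copies. In IL6 it lay 73 to 64 bases before the start. IL1B and CSF2 held neither motif in this window. GGGCTTTCC was found in CXCL1, CXCL2 and CXCL3 and in 0.547% of promoters. Over the bases printed, CXCL1 was 94.1% identical to CXCL2 and 90% to CXCL3, and the 3 were 39.1% to 41.6% identical to CXCL8. A match is a description of the letters and says nothing of binding in these cells.

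The same likeness extends to the transcripts and limits their counts. The coding sequences of CXCL1 and CXCL2 were 93.5% identical, those of CXCL1 and CXCL3 90.7%, and those of CXCL2 and CXCL3 94.4%. Of the 1048 stretches of 50 bases in the CXCL1 transcript, 60 were also in CXCL2 and 6 in CXCL3, and 54 of 1169 in CXCL2 were also in CXCL3. CXCL8 shared none with the others. The sources used here do not say how reads were divided between such copies, so the values of CXCL1, CXCL2 and CXCL3 are uncertain to that extent.

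The labels were checked on the targeted gene and on markers. HNRNPM stood at 171 FPKM in BM1 control cells and 28.4 with knockdown, and at 132 in LM2 control cells and 20.3 with knockdown, so 16.6% and 15.4% were left. Its average log2 change was -2.59 ± 0.25 (SE, limma adjusted p = 0.00318). The depth read from the low values was between 22781335 and 41489548 fragments. VIM, CD44 and EGFR, markers of the MDA-MB-231 line, were at 31.4 FPKM or more in every library, while ESR1 and PGR had no row. ERBB2 and EPCAM, fixed like ESR1 and PGR as markers expected to be low, each had a row. ERBB2 was at 21.9, 17.8, 21.3 and 13.5 FPKM in the order BM1 control, BM1 knockdown, LM2 control, LM2 knockdown. EPCAM was at 4.59 FPKM or less in every library. The luminal keratin KRT19, also fixed as a marker expected to be low, was not low in BM1, at 225 and 118 FPKM. It was lower in LM2, at 20.1 and 24.8 FPKM (-2.81, limma adjusted p = 0.00278). Of 9 leukocyte markers only 3 had a row (CD14, CD68 and CSF1R), and PTPRC, ITGAM, CD163, LYZ, CD3E and MS4A1 had none. The summed leukocyte markers ranged from 6.20 to 25.5 FPKM. Most of the sum was CD14 in the LM2 knockdown and CD68 in the other 3 libraries, and CD68, which genes on both strands overlap, fell on knockdown (-1.98, limma adjusted p = 0.00969). Of the fibroblast markers DCN had no row, and the sum of those listed ranged from 3.52 to 78.8 FPKM. COL1A1 was at 1.94, 11.1, 29.2 and 74.2 FPKM in the order BM1 control, BM1 knockdown, LM2 control, LM2 knockdown, and rose on knockdown (1.67, limma adjusted p = 0.0170) and was higher in LM2 (3.0, adjusted p = 0.00109). Of 4 endothelial markers, VWF and KDR had a row and were at 1.5 FPKM or less, and PECAM1 and CDH5 had none. The part of these markers in the results below was not tested.

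CCL2, on chromosome 17 at 32582237 to 32584222 (GRCh37, plus strand), encodes the main attractant of monocytes and separated the lines most widely. Its level was 86.3 FPKM in BM1 control cells and 92.0 with knockdown, and at 0.127 in LM2 control cells and 0.756 with knockdown. Both BM1 libraries were high and both LM2 libraries were near the floor, without overlap. The 2 LM2 libraries held only about 4 and 15 fragments of CCL2, against about 1995 and 1554 in BM1. Between controls BM1 was 681-fold higher than LM2 (95% interval 259 to 2437), and between knockdowns 122-fold higher (74.9 to 222). These intervals come from an exact binomial on approximate fragment numbers and, like all those below, cover counting error only. In the fit across all genes CCL2 was lower in LM2 by -6.00 ± 0.27 on log2(FPKM + 1) (SE, limma adjusted p = 3.37e-05). As for every gene here, this SE does not draw on replicate libraries. It draws on all genes tested and on how far the gene's knockdown difference departs between the lines.

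On knockdown, CCL2 in BM1 differed by 1.07-fold (0.998 to 1.14), an interval that includes no change. In LM2 it was 5.97-fold higher (1.82 to 23.6), at levels below 1 FPKM in both libraries. The average knockdown difference was 0.37 ± 0.27, which did not pass (limma adjusted p = 0.433). Within 300 kb of CCL2 the table lists 1 other gene, the pseudogene TLK2P1, at 0.666 to 0.902 FPKM in the 4 libraries, under the filter.

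CCL5, on chromosome 17 at 34198495 to 34207797 (minus strand), encodes a T cell and monocyte attractant and was barely present. It was listed at 0.102, 0.386, 0.0530 and 0.430 FPKM in the order BM1 control, BM1 knockdown, LM2 control, LM2 knockdown, or about 4, 12, 3 and 16 fragments. Both knockdown libraries were above both controls. The knockdown value was 3.78-fold higher in BM1 (1.25 to 17.5) and 8.12-fold higher in LM2 (2.32 to 43.5). The gene lay under the filter and had no test. Of the 4 other tested genes within 300 kb, AP2B1, an adaptor subunit of clathrin coats, was lower in LM2, at 217, 80.2, 49.0 and 41.0 FPKM (limma adjusted p = 0.0353). Its line difference was -2.12 between controls and -0.95 between knockdowns, and the call was lost in every alternative fit tested but median-ratio scaling.

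**Figure D1:**
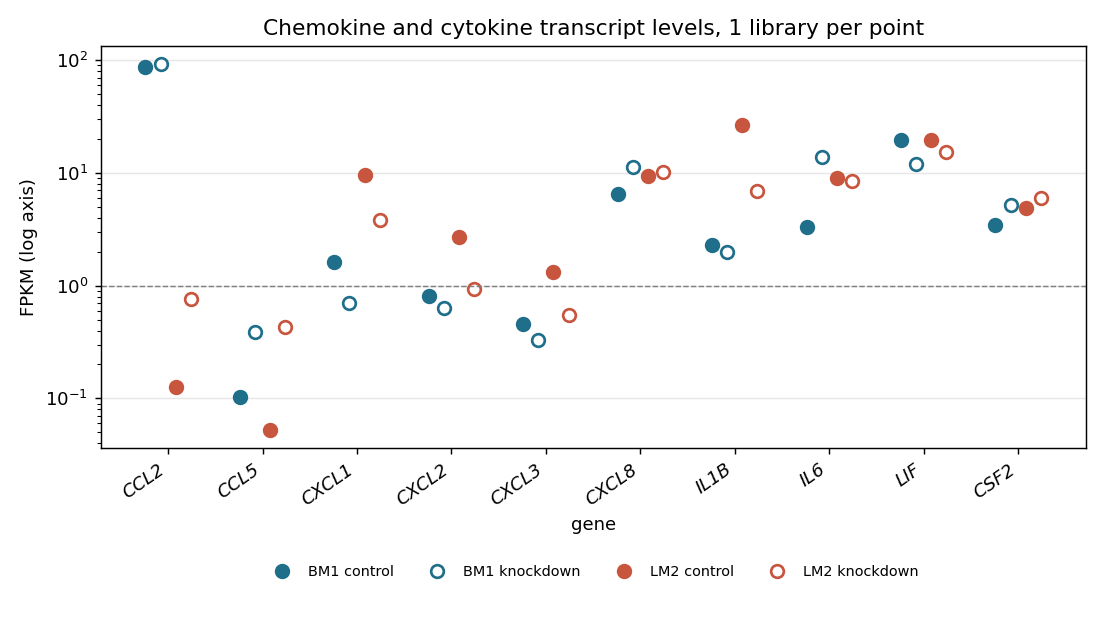
Level of each gene in FPKM (log axis) in the 4 libraries, 1 point per library, with filled points for controls, open points for knockdowns, blue for BM1 and red for LM2; the dashed line is 1 FPKM. CCL2 is high in the BM1 libraries, at 86.3 and 92.0 FPKM, and CCL5 stays below 1 FPKM in all 4.

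The CXC chemokine genes lie together on chromosome 4 (GRCh37): CXCL8 at 74606223 to 74609433 and CXCL1 at 74735110 to 74736959 on the plus strand, CXCL3 at 74902306 to 74904524 and CXCL2 at 74962752 to 74965010 on the minus strand. The table lists no other gene between them. CXCL1 was at 1.61 FPKM in BM1 control cells and 0.695 with knockdown, and at 9.55 in LM2 control cells and 3.83 with knockdown. Both LM2 libraries were above both BM1 libraries, and in each line the knockdown was below its control. LM2 was higher by 1.76 ± 0.26 on log2(FPKM + 1) and passed the test (limma adjusted p = 0.00978). Between the controls the fold was 5.92 (4.49 to 8.02) and between the knockdowns 5.51 (3.38 to 10.0).

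Knockdown libraries held 2.32-fold less CXCL1 in BM1 (1.35 to 4.34) and 2.49-fold less in LM2 (2.02 to 3.08). The average difference of -0.87 ± 0.26 did not pass the threshold (limma adjusted p = 0.0912). CXCL2 was at 0.812, 0.634, 2.72 and 0.934 FPKM in the same order of libraries. The LM2 control was the high library and the other 3 lay below 1 FPKM. Its knockdown level was 2.91-fold lower in LM2 (1.95 to 4.44) and 1.28-fold lower in BM1 (0.682 to 2.39), the latter interval including no change. Neither contrast passed for CXCL2, with limma adjusted p of 0.275 for knockdown and 0.227 for the lines.

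CXCL3 had the same order of libraries as CXCL1 and CXCL2, with the LM2 control highest and the BM1 knockdown lowest. It was listed at 0.457, 0.327, 1.32 and 0.550 FPKM in the order used above, under the filter. Its knockdown level was 2.40-fold lower in LM2 (1.38 to 4.51) and 1.40-fold lower in BM1 (0.545 to 3.73). Reads shared between the copies touch these likenesses.

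CXCL8, which encodes interleukin-8, the neutrophil attractant that shares no such stretch with the other 3, had another order. It was at 6.45 FPKM in BM1 control cells and 11.2 with knockdown, and at 9.43 in LM2 control cells and 10.1 with knockdown. The BM1 control was the low library and the others lay close together. Knockdown was 1.73-fold higher in BM1 (1.5 to 2.0) and 1.07-fold in LM2 (0.953 to 1.21). CXCL8 passed in neither contrast, at 0.40 ± 0.27 for knockdown (limma adjusted p = 0.396) and 0.18 ± 0.27 for the lines (0.750). In the same neighbourhood EREG, which encodes epiregulin, a ligand of the EGF receptor family, rose on knockdown (adjusted p = 0.0254) and was higher in LM2 (adjusted p = 0.0120), at 1.24, 12.1, 15.8 and 35.3 FPKM. Its knockdown difference was 2.54 in BM1 and 1.11 in LM2, and its line difference 2.91 between controls and 1.47 between knockdowns. Both EREG calls were lost with a pseudocount of 0.1 (adjusted p = 0.125 and 0.104), without the filter, with quantile normalization or with only the compared term.

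IL1B, on chromosome 2 at 113587328 to 113594480 (minus strand), encodes the pro-inflammatory cytokine interleukin-1 beta. Its level was 2.27 FPKM in BM1 control cells and 1.97 with knockdown, and at 26.5 in LM2 control cells and 6.93 with knockdown. Both LM2 libraries were above both BM1 libraries. The line difference was 2.24 ± 0.38 (limma adjusted p = 0.0151), or 11.7-fold between the controls (9.63 to 14.1) and 3.52-fold between the knockdowns (2.72 to 4.62). In LM2 the knockdown library was 3.82-fold lower than its control (3.39 to 4.33), and in BM1 it was 1.15-fold lower (0.858 to 1.58), an interval that includes no change. The average knockdown difference of -0.97 ± 0.38 did not pass (limma adjusted p = 0.158).

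IL6, on chromosome 7 at 22765503 to 22771621 (plus strand), had the widest knockdown difference in BM1 and almost none in LM2. It was at 3.28 FPKM in BM1 control cells and 13.9 with knockdown, and at 9.0 in LM2 control cells and 8.44 with knockdown. The BM1 control was the lowest library and the BM1 knockdown the highest, so the groups overlapped. Knockdown was 4.24-fold higher in BM1 (3.54 to 5.12), while in LM2 the ratio was 0.938 (0.821 to 1.08). On average the knockdown difference was 0.86 ± 0.41 (limma adjusted p = 0.232) and the line difference 0.28 ± 0.41 (0.731). A gene on the opposite strand, AC073072.5, overlaps IL6 and was at 0.633 to 1.38 FPKM. The libraries were stranded, per the labels, and the sources used here do not say whether the counting used strand.

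LIF, on chromosome 22 at 30636436 to 30642840 (minus strand), encodes leukemia inhibitory factor, a cytokine of the IL-6 family. It was at 19.5, 12.1, 19.6 and 15.3 FPKM in the order BM1 control, BM1 knockdown, LM2 control, LM2 knockdown. Both controls were above both knockdowns. The knockdown libraries were lower by 1.61-fold in BM1 (1.5 to 1.73) and by 1.28-fold in LM2 (1.21 to 1.36), and the average of -0.49 ± 0.26 did not pass (limma adjusted p = 0.275). The lines differed by 0.16 ± 0.26 (adjusted p = 0.759). LIF is overlapped on the opposite strand by RP1-102K2.6 and RP1-102K2.8, both at 1.71 FPKM or less.

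CSF2, on chromosome 5 at 131409483 to 131411863 (plus strand), encodes the colony-stimulating factor GM-CSF. It was at 3.46, 5.22, 4.87 and 5.96 FPKM in the same order, with both knockdowns above both controls. The fold was 1.51 in BM1 (1.12 to 2.06) and 1.22 in LM2 (0.963 to 1.56). Neither the knockdown average of 0.36 ± 0.25 (limma adjusted p = 0.413) nor the line difference of 0.28 ± 0.25 (0.563) passed.

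Counted over the family, no tested member passed the knockdown test (0 of 8), where 5.47% of all 13928 tested genes did. At an unadjusted limma p under 0.05 there were 2 of the 8 members, IL1B and CXCL1, and 3465 of the 13928 tested genes, which is about the same share. Past a 2-fold difference on log2(FPKM + 1) there was 1 member in BM1 (IL6), where 16.3% of tested genes were past it. In LM2 there were 2 (IL1B and CXCL1), where 8.06% were past it. With 1 library per arm the differences within a line have no replicate check. Whether the 2 lines differ in their knockdown response was not tested, since 4 libraries leave no degrees of freedom for it. In bulk RNA, fewer expressing cells and less RNA per cell cannot be told apart.

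**Figure D2:**
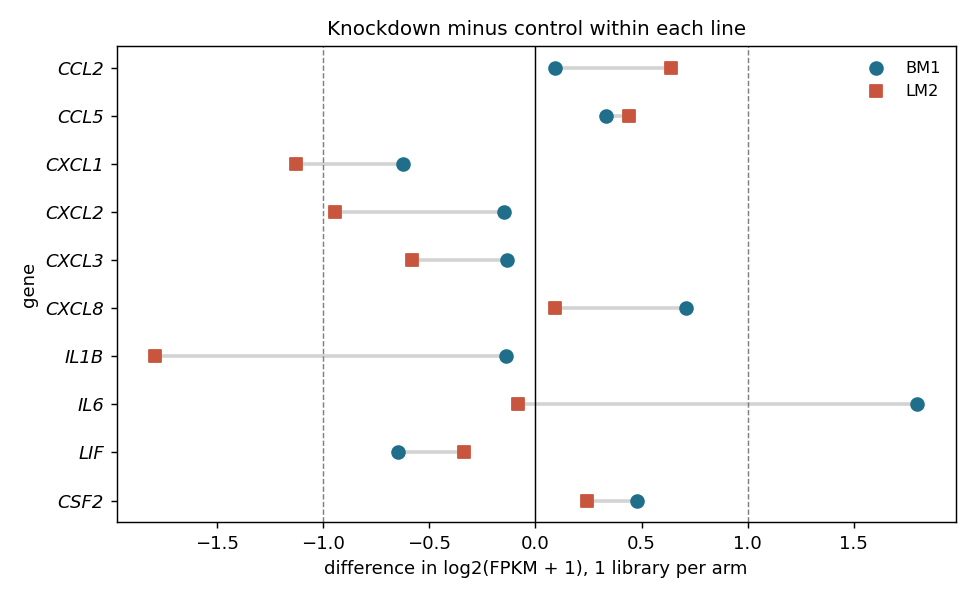
Difference knockdown minus control in log2(FPKM + 1) for each gene, with blue circles for BM1 and red squares for LM2, 1 library per arm; dashed lines mark a 2-fold difference. IL6 reaches 1.80 in BM1 and -0.08 in LM2, while IL1B reaches -0.14 in BM1 and -1.79 in LM2.

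For the lines, 3 of the 8 tested members passed, where 4.35% of all tested genes did. CCL2 was lower in LM2, and IL1B and CXCL1 were higher. CCL2 and the other 2 members thus stood on opposite sides, each with non-overlapping libraries. For any gene here, such separation of 2 against 2 libraries alone cannot give an exact permutation p under 0.333. How many of all genes separate in this way was not counted. Between the controls 5 members were past 2-fold (CCL2, IL1B, CXCL1, CXCL2 and IL6), where 12.2% of tested genes were. Between the knockdowns 3 were (CCL2, IL1B and CXCL1), where 9.04% were. The knockdown and line contrasts use the same 4 libraries and are not independent.

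The number of passing members depended on the fit. Only CCL2 passed with quantile normalization or with a fit holding the line term alone, and none passed without the filter on low values. Over all tested genes the line calls fell from 606 to 104, 11 and 0 in the same order of fits. With 1 library left out, a fit of both terms only returns the line difference between controls or between knockdowns. These were -6.28 and -5.73 for CCL2, 3.07 and 1.42 for IL1B, and 2.01 and 1.51 for CXCL1. They are therefore no check of stability. CXCL1 and CCL2 passed with a pseudocount of 0.1.

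**Figure D3:**
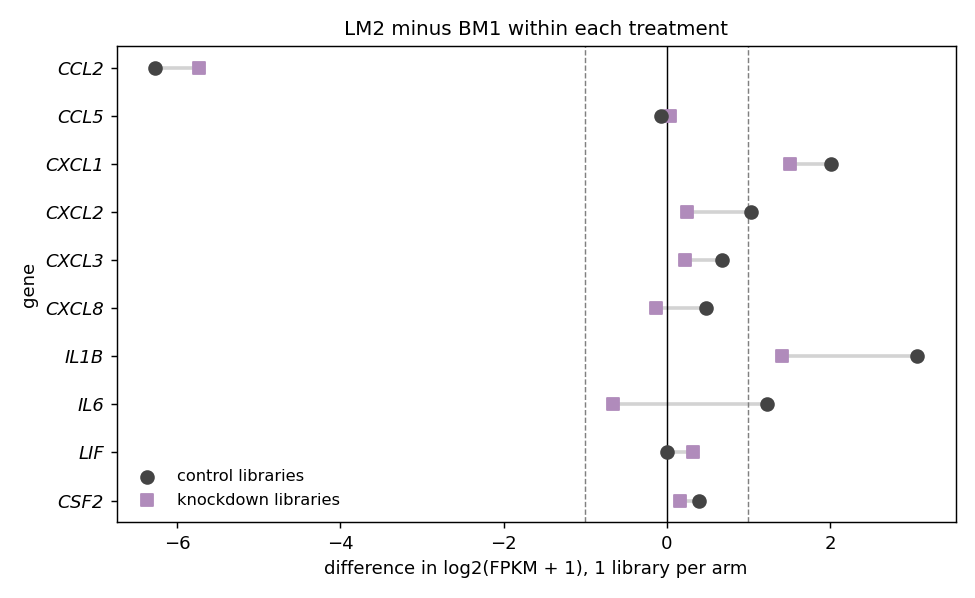
Difference LM2 minus BM1 in log2(FPKM + 1) for each gene, with dark circles for control libraries and purple squares for knockdown libraries, 1 library per arm; dashed lines mark a 2-fold difference. CCL2 lies at -6.28 and -5.73, and IL1B at 3.07 and 1.42.

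FPKM is scaled to length, so members can be ranked by level within a library. In the BM1 control the order of the highest was CCL2, LIF, CXCL8 and CSF2, and in the LM2 control IL1B, LIF, CXCL1 and CXCL8. In the LM2 control, CXCL1, CXCL8 and IL6 lay at 9.55, 9.43 and 9.0 FPKM, and in the BM1 control CSF2 and IL6 lay at 3.46 and 3.28 FPKM. With 1 library per group there is no spread to separate such neighbours. LIF was first or second in 3 libraries and came after CCL2 and IL6 in the BM1 knockdown. CCL5 was last in 3 libraries, with CXCL3 last in the BM1 knockdown.

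Receptors decide whether the same cells could respond to these proteins, and the table lists 8 of the 16 fixed for this family. Among those without a row were CCR2, CCR3, ACKR1, ACKR2, CXCR1, CXCR2 and IL1R2, so the main receptors of CCL2 and of the CXC chemokines have no value here. CCR1, a receptor of CCL5, was at 0.503 FPKM or less, and CSF2RB, the shared beta chain of the CSF2 receptor, at 0.155 or less. Of the 6 receptor genes tested, 3 rose on knockdown and none fell (5.47% of all genes passed in either direction), and their median difference was 1.06 against -0.01 over all tested genes. All 3 belong to the gp130 complexes of IL6 and LIF.

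IL6ST, the gp130 chain that IL6 and LIF share, was at 12.1 FPKM in BM1 control cells and 46.0 with knockdown, and at 31.7 in LM2 control cells and 79.2 with knockdown. Each knockdown was above its own control, while the BM1 knockdown was above the LM2 control. Its average rise was 1.57 ± 0.27 (limma adjusted p = 0.0184). LIFR, the LIF receptor, was at 3.49, 14.8, 4.11 and 8.25 FPKM, with both knockdowns above both controls, and rose by 1.33 ± 0.30 (adjusted p = 0.0405). IL6R, the IL6-binding chain, was at 0.330, 1.27, 0.755 and 4.86 FPKM, again with both knockdowns above both controls, and rose by 1.26 ± 0.30 (adjusted p = 0.0479).

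These 3 calls depended on the fit. Their count was 2 with a pseudocount of 0.5 or median-ratio scaling, and 0 with a pseudocount of 0.1, no filter, quantile normalization, a fit without the line term, or any library left out. Within lines the difference was 1.84 in BM1 and 1.29 in LM2 for IL6ST, 1.81 and 0.86 for LIFR, and 0.77 and 1.74 for IL6R. IL6ST and LIFR are overlapped by genes on the opposite strand.

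IL1R1, the signalling receptor of IL1B, was at 1.04, 3.67, 1.48 and 2.63 FPKM, and its difference of 0.87 ± 0.27 did not pass (limma adjusted p = 0.0993). IL1RAP, its partner chain, was at 1.61, 1.97, 4.09 and 5.64 FPKM, with both LM2 libraries above both BM1 libraries (line difference 1.06 ± 0.25, adjusted p = 0.0538). CSF2RA, the alpha chain of the CSF2 receptor, was at 5.47, 6.20, 9.04 and 15.4 FPKM. No receptor passed the line contrast.

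**Figure D4:**
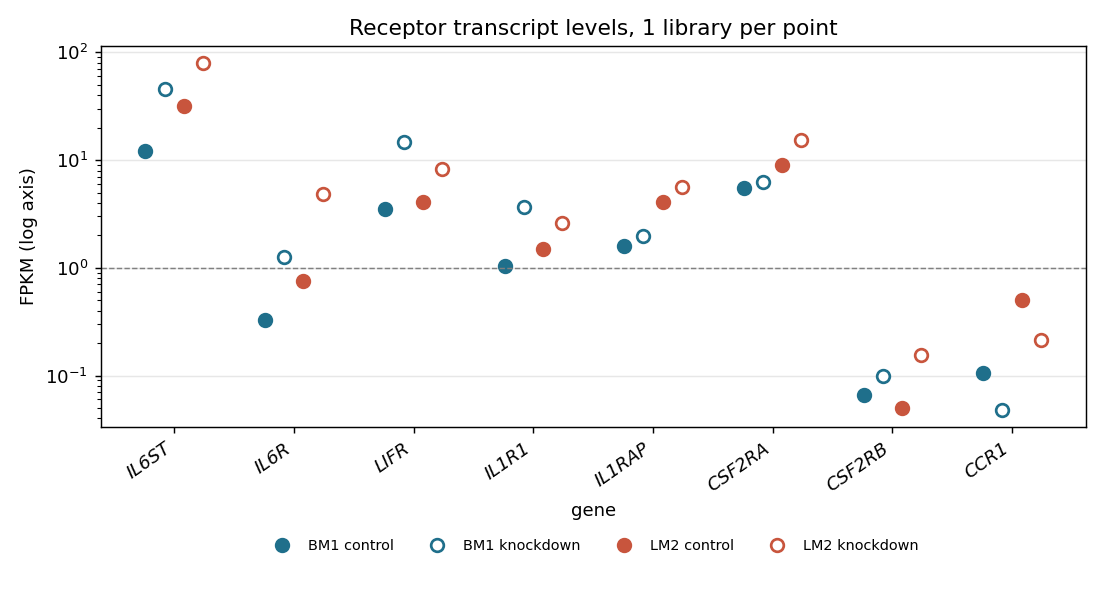
Level in FPKM (log axis) of the 8 receptor genes with a row, 1 point per library, colours and fills as for the levels of the cytokines; the dashed line is 1 FPKM. IL6ST, LIFR and IL6R stand higher in the knockdown than in the control of each line, and CSF2RB and CCR1 lie below 1 FPKM throughout.

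Rows for other chemokine genes were few, and a missing row does not show a low level. Of 24 other chemokine genes the table lists 3, of which 2 were tested. CCL26, an attractant of eosinophils, rose on knockdown (3.14, 8.56, 1.51 and 4.10 FPKM, 1.12 ± 0.25, limma adjusted p = 0.0417), and CCL28 did not pass (-0.42, adjusted p = 0.340). CXCL16 lay under the filter.

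Of 24 other cytokine genes 19 had a row and 12 were tested. On knockdown 1 rose, TNFSF10 (the death ligand TRAIL), at 0.695, 4.91, 1.32 and 2.98 FPKM (1.29 ± 0.30, limma adjusted p = 0.0462), and none fell, so 1 of 12 passed where 5.47% of all tested genes did. Within lines TNFSF10 differed by 1.80 in BM1 and 0.78 in LM2. The list's median knockdown difference was 0.39. Between lines 3 of 12 passed, where 4.35% of all tested genes did. CSF3 (the granulocyte factor G-CSF) and EBI3 (a subunit of IL-27 and IL-35) were higher in LM2 and IL11, which also signals through gp130, was lower. CSF3 was at 0.162, 0.105, 48.8 and 3.33 FPKM (line difference 3.70 ± 0.64, adjusted p = 0.0165), with the LM2 control highest, as for IL1B. Its average knockdown difference of -1.80 ± 0.64 was the largest in size among the 12 and did not pass (limma adjusted p = 0.130). Within lines that difference was -0.07 in BM1 and -3.52 in LM2. IL11 was at 108, 65.6, 54.1 and 8.76 FPKM (line difference -1.88 ± 0.39, adjusted p = 0.0360), and its knockdown difference of -1.60 missed the threshold (0.0515). EBI3 differed by 1.36 ± 0.32 (adjusted p = 0.0496). Between controls and between knockdowns the line difference was 5.42 and 1.97 for CSF3, -0.98 and -2.77 for IL11, and 0.79 and 1.93 for EBI3.

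The NF-kB pathway genes, which carry signals from IL1B to cytokine promoters, were all listed (26 of 26, 25 tested). None passed in either contrast, and the median knockdown difference was 0.23. The largest knockdown differences were those of BIRC3, an E3 ligase of the pathway (1.21, limma adjusted p = 0.0839), NFKB1, the p105/p50 subunit (-0.96, 0.0714), and IKBKB, a kinase of the inhibitor (-0.85, 0.0877). Between lines they were those of TRAF2 (1.04), NFKB1 (0.87) and MAP3K14 (0.83).

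NF-kB targets outside the cytokines gave 2 genes that rose on knockdown among 15 tested of 20, and none that fell, where 5.47% of all tested genes passed in either direction, with a list median of 0.06. SAA2, an acute-phase protein, was at 5.46, 10.7, 6.11 and 40.2 FPKM (1.70 ± 0.38, limma adjusted p = 0.0405), and its near copy SAA1 did not pass (1.25, adjusted p = 0.0686). Reads can be divided between these copies. ICAM1, a leukocyte adhesion molecule, was at 9.90, 17.5, 6.14 and 22.5 FPKM (1.24 ± 0.30, adjusted p = 0.0493). Within lines the difference was 0.86 in BM1 and 2.54 in LM2 for SAA2, and 0.76 and 1.72 for ICAM1. PTX3 stood at 98.2, 9.47, 30.3 and 42.6 FPKM and did not pass (-1.38, adjusted p = 0.248). Between lines SERPINE2 (1.77, adjusted p = 0.00852), C3 (1.74, 0.0404) and PLAU (1.53, 0.0260) were higher in LM2 and none was lower, where 4.35% of all tested genes passed. C3 differed by 2.56 between controls and 0.91 between knockdowns.

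In the gp130, JAK and STAT list 14 of 15 genes were tested and none passed on knockdown (median -0.05). Among the largest differences were those of STAT6 (-1.01) and STAT5B (-0.61). Between lines SOCS1, an inhibitor of JAK kinases, was higher in LM2 at 0.720, 0.688, 3.33 and 3.44 FPKM (1.36 ± 0.25, limma adjusted p = 0.0220), and SOCS2 (-1.54) and PIAS3 (-0.99) did not pass.

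**Figure D5:**
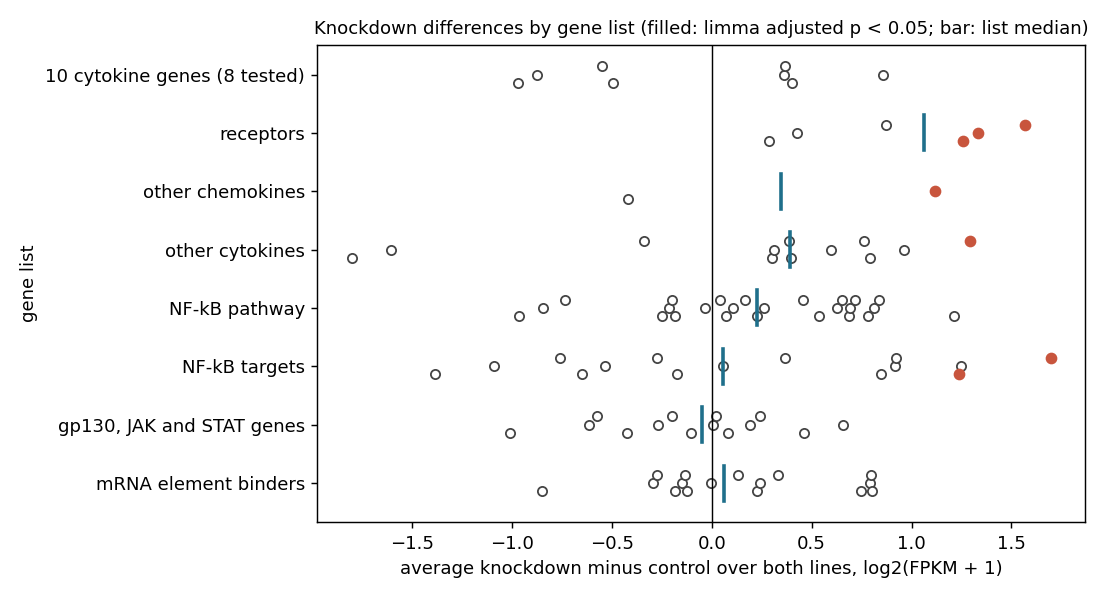
Average knockdown minus control difference over both lines in log2(FPKM + 1) for each tested gene, by gene list, with filled points for a limma adjusted p under 0.05 and bars for list medians. The 8 tested cytokine genes run from -0.97 to 0.86 with none filled, and 3 receptor points are filled between 1.26 and 1.57.

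The 3' untranslated regions of the family share an element that the choice of genes did not use. In GENCODE 29 the pentamer ATTTA was found in 9 of 10 members, all but CCL5, against 70.0% of 11224 tested genes. The heptamer TATTTAT was found in 8 of 10 members, all but CCL2 and CCL5, against 32.9% of tested genes. Each of these 8 held at least 3 copies, the lowest number among them, and 5.98% of tested genes held as many. The median density of ATTTA was 8.51 per kb in the family against 1.63 per kb, in regions with a median length of 689.5 bases against 1098 bases. Genes that bind such elements or stem-loops in cytokine transcripts numbered 17, of which 16 were tested. None passed in either contrast, with a median knockdown difference of 0.06. The largest were ZFP36L1, which promotes decay of AU-rich transcripts (-0.85), IGF2BP3 (0.80) and RC3H1 (0.80) on knockdown, and RC3H2 (0.84), ARID5A (0.82) and HNRNPD (0.59) between lines.

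Genes whose profile over the 4 libraries lay nearest to the 3 widest-ranging members were sought by Euclidean distance between centred log2(FPKM + 1) values, as a description over 4 libraries. The nearest to CCL2 were RP11-149I23.3, MAGEA6 and COX7B2, at distances of 0.78, 0.79 and 1.13. The nearest to IL1B were AKAP12, SLC16A6 and CD74, at 0.48, 0.58 and 0.67. CXCL1 came in place 4 for IL1B, while IL1B came in place 68 for CXCL1. The nearest to CXCL1 were CD74, NMU and ADAMTS17, at 0.15, 0.20 and 0.30. CD74, the invariant chain of MHC class II, was at 23.2, 15.9, 108 and 50.7 FPKM, the same order of libraries as CXCL1.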

How the data were processed

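PolyA-selected RNA was sequenced from stranded paired-end libraries, per the labels' protocols. The authors deposited 1 table of FPKM values with 1 column per library. STAR 2.5.3a, Cuffdiff 2.2.1 and GRCh37 are named in the submitters' processing notes. Of 20369 entries, 40 under 3 repeated gene IDs were left out. FPKM hold no counts. Depth was inferred from low values of 1624 genes with a single transcript, of which 36.0% to 43.9% lay within 0.02 of a whole fragment number. Fragment numbers are therefore approximate, and no p-value was taken from them. The exact binomial intervals built on them are approximate too. Fragment numbers of members assume 1 GENCODE 29 coding transcript.

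Values were analysed as log2(FPKM + 1), which understates changes of low genes. limma 3.58.1 (R 4.3.3) fitted line and treatment over 4 libraries, with 1 residual degree of freedom, on genes whose mean FPKM was 1 or more. P-values were two-sided, Benjamini-Hochberg adjusted over all 13928 genes, and called under 0.05. Knockdown and control are paired by cell line. An exact permutation test of 2 against 2 libraries cannot give a p under 0.333. The fit was tested on simulated data. Members and lists were chosen with earlier results of these data known. Named were all members, all listed receptors, the 3 tested genes of each list with the largest difference in each contrast, any list gene that passed, genes near the chemokine clusters, and nearest profiles. Alternatives were other pseudocounts, no filter, other scalings, a 1-term fit, another fold and leaving out each library. Some genes of the fixed lists are counted but not reported here by name.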

Additional observations from a re-analysis of the deposited data

Results flagged for a closer look

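IL6 differed in direction between the lines on knockdown: the difference on log2(FPKM + 1) was 1.80 in BM1 and -0.0827 in LM2, where the ratio of 0.938 had a 95% counting interval of 0.821 to 1.08, which includes no change. The same 4 values give an LM2 minus BM1 difference for IL6 of 1.22 between controls and -0.66 between knockdowns. CXCL8 was higher in LM2 between controls (0.48) and lower between knockdowns (-0.13), where the ratio of 0.906 had a 95% counting interval of 0.794 to 1.04, which includes no change. CCL5 differed by -0.0658 between controls and 0.0451 between knockdowns, at levels under 1 FPKM, with both counting intervals including no change (0.0826 to 3.33 and 0.495 to 2.58). Each group here is 1 library, so these opposite directions were not tested.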

How the results depend on the processing

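No member passed the knockdown test under any alternative run, with 0 to 3 members at an unadjusted p under 0.05. For LM2 minus BM1, 3 members passed. This became 0 without the filter, 1 with quantile normalization and 1 with only the compared term. In the same order, the line calls over all tested genes went from 606 to 0, 104 and 11. IL1B and CXCL1 also lost their calls when any library was left out, in fits that leave 1 library in a group. Receptors that passed on knockdown went from 3 to 0 with a pseudocount of 0.1, 0 without the filter, 0 with quantile normalization, 0 with only the compared term and 0 to 0 when each library was left out (chosen after seeing the data). Members past 2-fold on knockdown in BM1 went from 1 to 2 with a pseudocount of 0.1 and to 4 with a fold of 1.5. In LM2 they went from 2 to 4 with a pseudocount of 0.1, 4 with 0.5 and 4 with a fold of 1.5. Over all tested genes the knockdown calls went from 762 to 27 with a pseudocount of 0.1, and to 0 without the filter, with quantile normalization, with only the compared term or with any library left out, while unadjusted calls stayed between 860 and 3735. With 3 libraries a fit of both terms has no residual degrees of freedom, so counts without a library come from the compared term alone. No called value changed sign. Values that did not pass changed sign when a library was left out for IL6 in both contrasts and for CXCL8 between lines. Each value with a library left out repeats a difference between single libraries and is no separate check. Of 25 calls of single named genes, HNRNPM among them, 25 were lost in at least 1 alternative, with the highest limma adjusted p of each between 0.213 and 0.646 (alternatives for genes that are no member were chosen after seeing the data). CCL2 in LM2, CCL5 and CXCL3 rest on few fragments, and 1 library per group limits every difference within a line.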
